A study of Arabidopsis thaliana with 12 samples.

Results

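Seedlings of the cdk8 mutant and of wild type were compared after both had been given abscisic acid (ABA). All genes of 6 of the study's 12 libraries entered the comparison, 3 from cdk8 with ABA and 3 from wild type with ABA. Every library came from whole Arabidopsis thaliana seedlings aged 1 week, and the ABA groups had received 50 µM ABA for 3 h. The other 6 libraries were mock-treated seedlings of the same genotypes, 3 for each, and served to show which genotype differences were also present without ABA. Their columns in the deposited table are named for 0 h, no duration is given for the mock, and so a difference in sampling time between mock and ABA cannot be told apart from ABA. The title of cdk8 ABA library 3 carries a library number outside the consecutive run of the others, and no batch is stated. The sources used here do not name the allele of the cdk8 mutant, the accession of the plants or the number of seedlings per library.

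CDK8 is the kinase of a Mediator module, shared with C-type cyclin, MED12 and MED13, that binds reversibly to the rest of Mediator, the coactivator complex that joins transcription factors to RNA polymerase II. ABA is the hormone of drought and of seed maturation. PYR/PYL receptors that have bound ABA inhibit clade A PP2C phosphatases, which frees SnRK2 kinases to phosphorylate ABF-type transcription factors, and these act on dehydration genes through ACGTG-containing promoter elements.

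Levels are given as CPM, counts per 1000000 assigned fragments with trimmed-mean (TMM) scaling of the library sizes, and in the order of libraries 1, 2 and 3 of each group. A gene was called when its Benjamini-Hochberg adjusted p from the quasi-likelihood test of edgeR, fitted on all 12 libraries and adjusted over all 21151 genes tested, was under 0.05. Genes described here as higher, lower, risen or fallen passed this test. The p-values measure a spread estimated jointly over all 12 libraries, whose independence the labels do not state. That spread was uneven between treatments. Within a group, the chi-square of 2 libraries' counts per degree of freedom was 6.26 to 9.62 after mock and 9.07 to 30.7 after ABA. On the 6 ABA libraries alone 2931 genes were called, against 4999 on all 12. In whole seedlings, fewer cells of a type and less RNA per cell cannot be told apart.

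The targeted gene, listed as CDKE;1 (AT5G63610, chromosome 5, 25463437 to 25465897, minus strand, TAIR10), had 29.2, 29.4 and 26.7 CPM in wild type against 10.5, 5.195 and 9.36 CPM in cdk8. Its RNA was lower in each cdk8 library than in each wild-type library (log2 fold change -1.77 ± 0.22 SE, adjusted p = 0.000111) and was not absent from the mutant. The other members of the kinase module did not pass the test: the log2 fold change was 0.18 for MED12 (listed as CCT), 0.37 for MED13 (listed as GCT), 0.28 for the C-type cyclin AT5G48640 and 0.21 for its neighbour AT5G48630. Of the 490 genes tested within 1 Mb of CDKE;1, 9.18% were higher and 14.7% lower in cdk8 after ABA. Those shares lay beside 10.6% and 13% of all genes tested.

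Assigned fragments numbered 17675785 to 19326565 in the wild-type ABA libraries and 24292745 to 27415053 in the cdk8 ABA libraries, so depth moved with genotype, and its part in the results was not tested. On a principal component analysis of the 6 ABA libraries the genotypes were separated along the axis with 53.4% of the variance. Along the axis with 20.9%, wild-type library 3 and cdk8 library 2, with scores of -34.8 and -31.3, stood apart from the other 4, whose scores lay between 4.93 and 27.9. Deviations of these 2 libraries from the mean of the other libraries of their group had a Pearson correlation of 0.348 across the 21151 genes. At least 2-fold above that mean in both were 150 genes, and at least 2-fold below in both were 64. Among the former were salicylic acid response genes such as PR1, whose levels were 0.984, 2.01 and 106 CPM in wild type against 0.391, 6.84 and 9.998 CPM in cdk8, and BGL2, the glucanase PR2, with 1.97, 3.43 and 18.6 CPM in wild type against 1.31, 16.1 and 4.78 CPM in cdk8. ASN1, a dark- and starvation-induced asparagine synthetase, was low in both, with 1141, 1249 and 268 CPM in wild type against 537, 194 and 721 CPM in cdk8. The genotypes' ABA libraries overlapped for all 3 of these genes, and none was called. Without these 2 libraries ASN1 was lower in cdk8 (-0.95, adjusted p = 0.000375), and PR1 and BGL2 were not called. Such genes were picked after their values were seen. Of the 150 genes, 22 were called lower and 2 higher in cdk8, and of the 64, 8 lower and 9 higher. Among all genes tested, 13% were lower and 10.6% higher. The 150 and 64 genes were picked for 1 library of each group lying away from its others. That widens their spread within groups, so these counts are a description only. Counts of list members given below moved by 1.5 times or more without the 2 libraries as follows, beside those given where the list is described. Higher members became 1 for ABA synthesis and breakdown, 2 for jasmonate and ethylene, 3 for auxin, 2 for guard cell markers, 2 for morning clock genes and 1 for iron. Lower members became 2 for auxin, 2 for photosynthesis, 1 for phosphate starvation and 2 for alpha-expansins.

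**Figure D1:**
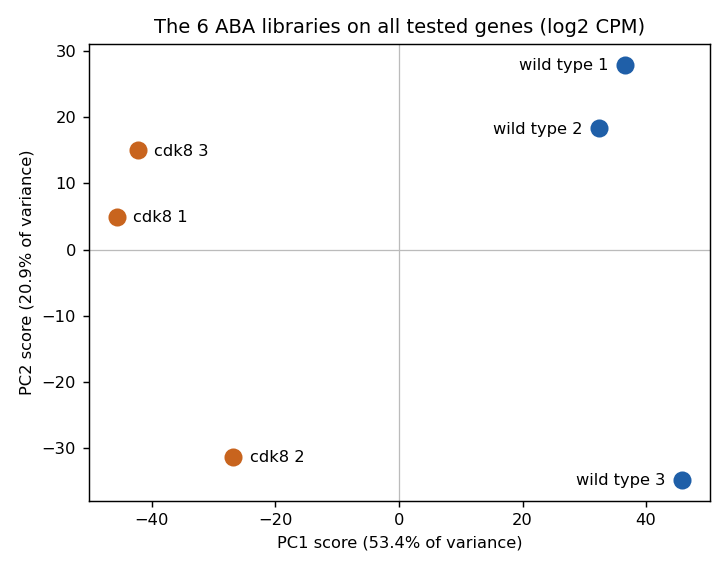
Principal component scores of the 6 ABA libraries, from log2 CPM of all tested genes; blue points are wild type and orange points cdk8, each labelled with its library number. PC1 (53.4% of the variance) separates the genotypes, and PC2 (20.9%) sets wild-type library 3 and cdk8 library 2 below the other 4 libraries.

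After ABA, 4999 genes differed between the genotypes, 23.6% of those tested: 2244 were higher in cdk8 (10.6%) and 2755 lower (13%). With upper-quartile scaling the split was 2865 higher and 2417 lower. Of the called genes in the main comparison, 792 were at least 2-fold lower and 363 at least 2-fold higher. The median log2 fold change of all genes tested was 0.0048. The 3 cdk8 libraries lay wholly above the 3 wild-type libraries for 3596 genes (17%) and wholly below for 3913 (18.5%), together 35.5%. Without the 2 libraries that stood apart, 2038 genes were higher (9.57% of 21299) and 3007 lower (14.1%), together 23.7%. Without cdk8 library 1, 1156 were higher and 1943 lower, and without cdk8 library 3, 1464 were higher. Across the 5 nuclear chromosomes the called shares lay between 10.3% and 11.3% for higher and between 12.5% and 14.4% for lower genes.

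**Figure D2:**
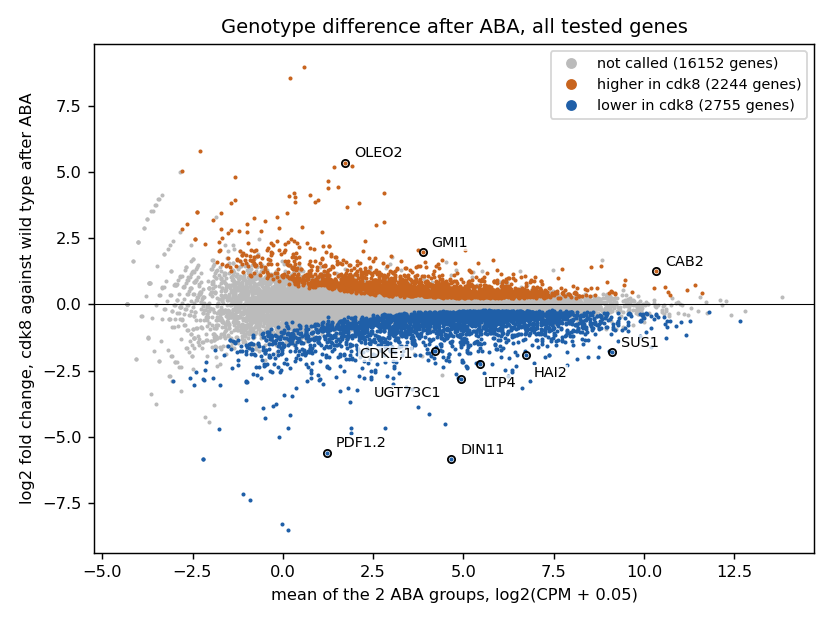
Log2 fold change of cdk8 against wild type after ABA (vertical axis) against the mean level of the 2 ABA groups (horizontal axis, log2 of CPM + 0.05), a point for each of 21151 genes; orange points passed the test higher in cdk8 (2244), blue points lower (2755) and grey points did not pass. Among the labelled genes, OLEO2, GMI1 and CAB2 lie above zero and CDKE;1, HAI2, LTP4, SUS1, UGT73C1, PDF1.2 and DIN11 below.

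Genes with the largest falls in cdk8 were of mixed function. Named here are the 10 largest falls, and below the 10 largest rises, among called genes with a symbol, a mean of at least 5 CPM in either ABA group, no overlap between the groups and a call also without the 2 libraries that stood apart. DIN11, a dark-inducible dioxygenase, was at 79.04, 50.4 and 20.5 CPM in wild type against 0.888, 0.394 and 1.32 CPM in cdk8. NATA1, an acetyltransferase of the arginine and ornithine pathway, was at 9.67, 8.52 and 22.7 CPM in wild type against 0.568, 0.322 and 0.723 CPM in cdk8. Both were low in every cdk8 library, and their groups did not overlap (log2 fold changes -5.86 and -4.66; adjusted p = 2.39e-05 and 0.000433). CWINV5, of the cell wall invertase family, had 20.8, 24.2 and 29.3 CPM in the wild-type libraries and 2.49, 1.04 and 1.57 CPM in those of cdk8 (log2 fold change -3.86 ± 0.28 SE, adjusted p = 1.73e-06). UGT73C1, a glucosyltransferase, had 52.4, 44.8 and 63.02 CPM in the wild-type libraries and 6.07, 8.99 and 7.39 CPM in those of cdk8 (log2 fold change -2.84 ± 0.16 SE, adjusted p = 1.41e-07). In each of these genes the lowest wild-type library was above the highest cdk8 library. The other 6 were the cytochrome P450 CYP81G1, the mitochondrial dicarboxylate carrier DIC3, the receptor-like protein RLP33, the cellulose synthase-like CSLG2, the small heat shock protein ATHSP22.0 and the ERF-type factor RAP2.9, with log2 fold changes from -4.66 for CYP81G1 to -3.13 for ATHSP22.0 and RAP2.9 slightly less. CYP81G1 shares 703 exon bases with AT5G67300 on the other strand, itself at a mean of 478 CPM in wild type against 188 CPM in cdk8, so its count is uncertain.

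Seed genes had the 3 largest rises, and these rested mainly on 2 of the 3 cdk8 libraries. OLEO2, an oleosin that coats seed oil bodies, was at 0.0579, 0.296 and 0.106 CPM in wild type against 11.8, 0.824 and 6.46 CPM in cdk8. CRU3, the 12S storage protein cruciferin C, was at 0, 0.414 and 0.159 CPM in wild type against 16.4, 0.8599 and 4.34 CPM in cdk8. PER1, a seed peroxiredoxin, had 0, 0.7096 and 0.0529 CPM in the wild-type libraries and 7.39, 1.15 and 7.87 CPM in those of cdk8. For all 3 genes the cdk8 libraries 1 and 3 were high and cdk8 library 2 was the lowest of its group, still above the highest wild-type library. The adjusted p in the edgeR fit was 0.00162, 0.00781 and 0.00292, and limma-voom did not call any of these 3. In the seed storage and oleosin list, 5 of the 6 members tested were higher and none lower, with a median log2 fold change of 4.71, the same with SESA2 at the bound given next. The filter on low counts left the other 4 of its 10 members untested, and members that pass it through cdk8 alone had to differ, so the count is a description only. Summed over the 6 members, the level was between 1.16 and 3.90 CPM in the wild-type libraries and 63.3, 4.91 and 30.5 CPM in the cdk8 libraries. SESA2, a 2S albumin, had no count in the wild-type ABA libraries and 182 counts over the cdk8 ABA libraries, at least 42.8-fold higher taking 3 counts over the 3 libraries as the floor. Called members of this list numbered 8 without wild-type library 1, 2 or 3 or without cdk8 library 2, since more members passed the filter, and 2 under limma-voom.

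GMI1, a DNA damage-induced gene of the structural maintenance of chromosomes type, had 5.79, 4.97 and 7.08 CPM in the wild-type libraries and 20.3, 23.6 and 25.9 CPM in those of cdk8 (log2 fold change 1.96 ± 0.15 SE, adjusted p = 3.33e-06). MLO12, a membrane protein of the family of the barley mildew resistance locus, had 22.6, 27.9 and 30.5 CPM in wild type against 83.3, 102 and 71.9 CPM in cdk8 (log2 fold change 1.67 ± 0.14 SE, adjusted p = 6.17e-06). NAS2, an enzyme that makes the metal chelator nicotianamine, had 0.521, 0.769 and 0.211 CPM in the wild-type libraries and 6.64, 7.27 and 5.06 CPM in those of cdk8 (log2 fold change 3.67 ± 0.44 SE, adjusted p = 7.8e-05). None of the 3 genes overlapped between the groups. GLP9, a germin-like protein, ICL, the isocitrate lyase of the glyoxylate cycle, CYP71A16, a P450 that acts on marneral, and BGLU19, a beta-glucosidase, completed the 10 with log2 fold changes of 2.07, 2.01, 1.59 and 3.82. BGLU19, uneven across the cdk8 libraries with 0, 1.66 and 0.0529 CPM in the wild-type libraries and 8.52, 2.15 and 13.05 CPM in those of cdk8, was not called without cdk8 library 3 or under limma-voom. BGLU19 shares 446 exon bases with AT3G21360 on the other strand. After mock, NAS2, GLP9, GMI1 and CYP71A16 were also called higher in cdk8, at 1.96, 3.44, 1.28 and 1.01. OLEO2, CRU3, PER1, BGLU19, ICL and MLO12 were not called after mock.

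Along the ABA signalling chain, several phosphatase genes were lower. Of the 9 clade A PP2C genes, which hold the pathway off, 4 were lower in cdk8 and none higher, where 13% and 10.6% of all genes were, with a median log2 fold change of -0.32. Those 2 shares are the background for each list count after ABA below. HAI2, itself induced by ABA, had 180.1, 162 and 165 CPM in the wild-type libraries and 38.95, 46.3 and 48.4 CPM in those of cdk8 (log2 fold change -1.92 ± 0.13 SE, adjusted p = 1.46e-06). ABI1 had 992, 908 and 886 CPM in wild type against 511, 524 and 453 CPM in cdk8 (log2 fold change -0.90 ± 0.093 SE, adjusted p = 2.63e-05). PP2CA had 818, 777 and 678 CPM in the wild-type libraries and 469, 458 and 531 CPM in those of cdk8 (log2 fold change -0.64 ± 0.12 SE, adjusted p = 0.00239). Every cdk8 library lay below every wild-type library for each of the 3. HAB1 was the fourth, with a log2 fold change of -0.32. The remaining 5 did not pass, among them HAI1 at -0.63 (adjusted p = 0.0638) and HAB2 at 0.024. The summed level of the list was between 3329.8 and 3900.2 CPM in wild type and between 2297 and 2388 CPM in cdk8. After mock, 2 of the 9 genes were lower and 1 higher. HAI2 and ABI1 were the lower ones (-1.32 and -0.51), and PP2CA, at -0.35, was not called after mock.

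Of 14 PYR/PYL receptor genes, 10 were tested and 4 were lower in cdk8: PYR1 at -0.40, PYL2 at -1.03, PYL4 at -0.55 and PYL5 at -0.48 on the log2 scale. This count fell to 1 without wild-type library 1 or 2 or cdk8 library 1, and to 2 without cdk8 library 3. PYL8 (listed as RCAR3), the most abundant, was at -0.035 and did not pass. After mock, 2 of the 10 receptor genes were lower, PYL5 (-0.67) among them, and none was higher. PYR1 and PYL4 were not called after mock. Among the SnRK2 kinases and ABF-type factors, OST1 (SnRK2.6, the guard cell kinase of ABA signalling) was lower with 102, 89.4 and 80.4 CPM in wild type against 63.03, 57.2 and 64.8 CPM in cdk8, and its groups did not overlap (log2 fold change -0.56 ± 0.096 SE, adjusted p = 0.0012). ABF4 had 81.99, 76.8 and 64.6 CPM in wild type against 103, 94.7 and 107 CPM in cdk8. ABF1 had 79.3, 80.3 and 86.2 CPM in the wild-type libraries and 100.03, 105 and 104 CPM in those of cdk8. Both transcription factors were higher in every cdk8 library than in any wild-type library (log2 fold changes 0.45 and 0.33, adjusted p = 0.00471 and 0.0108). They share 6 and 123 exon bases with genes on the other strand. After mock, ABF4 was also higher in cdk8 (0.35), whereas ABF1 was lower (-0.57). SNRK2.2, SNRK2.3, ABF2, ABF3 and ABI5 did not pass. Of 12 genes of ABA synthesis and breakdown tested, 3 were lower and none higher. All 3 encode ABA 8'-hydroxylases, which break ABA down, and CYP707A3 had 62.9, 55.2 and 69.2 CPM in the wild-type libraries and 37.2, 43.6 and 34.1 CPM in those of cdk8 (log2 fold change -0.70 ± 0.12 SE, adjusted p = 0.000995). CYP707A1 and CYP707A4 overlapped between the groups, and CYP707A4 was at -0.17 (adjusted p = 0.539) without the 2 libraries that stood apart. CYP707A1 lost its call without wild-type library 1 or 3 or cdk8 library 1 or 3, and CYP707A4 without wild-type library 3 or cdk8 library 1 or 2. After mock, CYP707A3 was the only member of this list called, lower in cdk8 at -1.18.

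Promoters of 5 called genes are shown because they carry the ABA element family for which all promoters were searched. Each is the 250 bases before the annotated gene start in RefSeq TAIR10.1, 5′ to 3′ on the gene's strand, with capitals marking every match to ACGTGNC (the ABA-responsive element) or CACGTG (the G-box) on either strand; these motifs overlap where a G-box is followed or preceded by a matching base. The phosphatases HAI2 and PP2CA and the ERF factor RAP2.6 were lower in cdk8, and the oleosin OLEO1 and PER1 were higher.
HAI2, chr1:2282829-2283078, minus strand: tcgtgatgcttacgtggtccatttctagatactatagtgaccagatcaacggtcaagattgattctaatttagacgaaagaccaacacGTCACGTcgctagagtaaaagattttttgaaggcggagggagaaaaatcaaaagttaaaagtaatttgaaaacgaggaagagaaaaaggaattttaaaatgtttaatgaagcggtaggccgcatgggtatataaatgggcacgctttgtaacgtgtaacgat
PP2CA, chr3:3585851-3586100, minus strand: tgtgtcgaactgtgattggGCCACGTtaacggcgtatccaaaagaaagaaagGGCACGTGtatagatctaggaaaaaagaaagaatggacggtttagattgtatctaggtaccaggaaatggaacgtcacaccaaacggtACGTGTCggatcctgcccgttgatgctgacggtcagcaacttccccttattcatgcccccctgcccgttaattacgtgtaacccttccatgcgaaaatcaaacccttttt
RAP2.6, chr1:16263555-16263804, plus strand: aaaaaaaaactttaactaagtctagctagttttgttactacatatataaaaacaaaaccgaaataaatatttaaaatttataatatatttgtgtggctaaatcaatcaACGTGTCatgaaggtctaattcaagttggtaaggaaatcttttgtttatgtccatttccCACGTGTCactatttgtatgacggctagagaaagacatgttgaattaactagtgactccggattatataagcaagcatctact
OLEO1, chr4:12900180-12900429, plus strand: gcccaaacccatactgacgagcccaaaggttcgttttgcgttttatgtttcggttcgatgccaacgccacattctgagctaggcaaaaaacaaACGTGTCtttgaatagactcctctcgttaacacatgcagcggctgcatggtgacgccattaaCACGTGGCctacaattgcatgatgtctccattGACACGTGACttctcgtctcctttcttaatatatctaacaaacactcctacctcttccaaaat
PER1, chr1:17780179-17780428, plus strand: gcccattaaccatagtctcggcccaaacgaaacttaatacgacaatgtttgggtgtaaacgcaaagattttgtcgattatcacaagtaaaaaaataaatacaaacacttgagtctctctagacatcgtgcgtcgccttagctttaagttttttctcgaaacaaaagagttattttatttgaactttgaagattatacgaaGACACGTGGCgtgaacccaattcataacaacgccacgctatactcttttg
These 5 were picked for carrying the element, so its presence upstream of genes that differed in opposite directions was set by the choice. Other named genes had no match in this window, among them ABI1 and OST1, lower in cdk8, and P5CS1 and OLEO2, higher. Across 20514 protein-coding promoters of tested genes, 9.67% held ACGTGNC, against 12.7% of the 2183 promoters of genes higher in cdk8 and 10.1% of the 2726 of genes lower. For genes at least 2-fold higher the share was 16.3% (54 of 332) and for genes at least 2-fold lower 11.1% (86 of 776). CACGTG was in 7.56% of all, 10.2% of higher and 8.03% of lower promoters. Of the 1984 promoters with ACGTGNC, 1022 also held CACGTG. AAATATCT, the evening element of clock genes, was in 4.98% of all, 4.03% of higher and 6.57% of lower promoters. TTGACC, the W-box core with a further base, was in 12.3%, 12.1% and 12.1%. GCCGCC was in 1.91%, 1.33% and 2.09%, and the heat shock element (AGAA, TTC and GAA, each separated by 2 bases) in 0.161%, 0.0458% and 0.330%. All motifs were searched on both strands, the windows hold these letters by the annotation's starts only, and the shares are descriptions.

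Dehydration effector genes moved in both directions. Of 22 tested, 9 were lower and 3 higher in cdk8, with a median log2 fold change of -0.38. LTP3, a lipid transfer protein, had 83.96, 92.8 and 136 CPM in wild type against 23.5, 28.3 and 27.9 CPM in cdk8. LTP4, its neighbour, had 59.8, 62.03 and 97.3 CPM in the wild-type libraries and 12.6, 12.8 and 20.8 CPM in those of cdk8. Wild-type library 3 was the highest for both and the groups did not overlap (log2 fold changes -1.97 and -2.25, adjusted p = 2.57e-05 and 0.000101); as similar copies they may share reads. RD22, a dehydration-responsive BURP-domain protein, had 1089, 1228 and 1671 CPM in the wild-type libraries and 518, 716 and 503 CPM in those of cdk8 (log2 fold change -1.20 ± 0.16 SE, adjusted p = 0.000184). Also lower were RD20, COR15B, TSPO and the dehydrins COR47, ERD10 and ERD14, at log2 fold changes from -1.13 for RD20 to -0.31 for ERD10. P5CS1, the rate-limiting enzyme of proline synthesis, went the other way with 544, 497 and 439 CPM in the wild-type libraries and 901, 892 and 966 CPM in those of cdk8, and its groups did not overlap (log2 fold change 0.90 ± 0.18 SE, adjusted p = 0.00345). The other 2 higher members were the seed protein EM1 and the dehydrin XERO1, at 12.8 and 5.08 CPM on average in cdk8. Several genes often used as ABA markers did not pass: RAB18 was at -0.032, RD29B (listed as LTI65) at -0.92 with adjusted p = 0.0639, and RD29A (listed as LTI78) at -0.41 with adjusted p = 0.0555.

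Transcription factors of drought and cold were mostly lower. Of 16 tested, 9 were lower and 1 higher, with a median of -0.60. RD26, an ABA-induced NAC factor, had 552, 552 and 545 CPM in the wild-type libraries and 343, 369 and 320.2 CPM in those of cdk8 (log2 fold change -0.68 ± 0.084 SE, adjusted p = 0.000108). HB-7, a homeodomain factor of the water deficit response, had 809, 754 and 750.03 CPM in the wild-type libraries and 442, 469.8 and 494 CPM in those of cdk8 (log2 fold change -0.72 ± 0.096 SE, adjusted p = 0.00019). The groups of both genes were separated by more than their spread. NAC019, NAC055 (listed as NAC3), DREB2A, ZAT6, HB-12, MYB2 and CBF1 were the other lower members, with log2 fold changes from -1.24 for MYB2 to -0.53 for HB-12. CBF2, a cold response factor, was higher, with 14.6, 10.7 and 10.5 CPM in wild type against 18.7, 15.2 and 21.2 CPM in cdk8 (adjusted p = 0.0194), a call that was lost without wild-type library 2 or 3 or cdk8 library 1 or 3. In the ERF group X, the group of RAP2.6, 3 of 6 members tested were lower and none higher. RAP2.6L had 75.8, 70.96 and 97.8 CPM in wild type against 30.7, 42.7 and 27.7 CPM in cdk8 and ABR1, a repressor of ABA responses, had 45.3, 36.3 and 56.8 CPM in the wild-type libraries and 22.97, 18.7 and 15.4 CPM in those of cdk8. ABR1 shares 109 exon bases with a gene on the other strand. Each was lower in all cdk8 libraries (log2 fold changes -1.27 and -1.28), like RAP2.6 itself (-0.99).

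**Figure D3:**
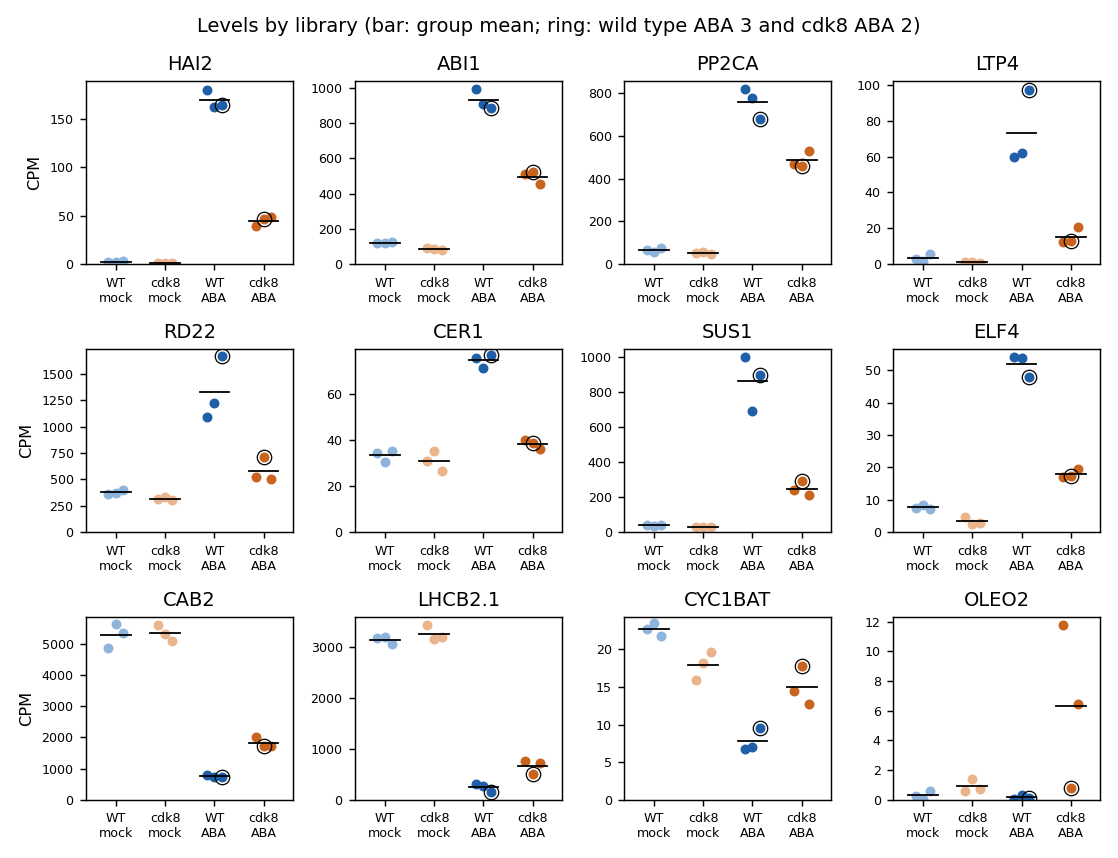
Levels in CPM (vertical axes, from 0) of 12 genes in each library of the 4 groups; horizontal bars are group means and rings mark wild-type ABA library 3 and cdk8 ABA library 2. In HAI2, ABI1, PP2CA, LTP4, RD22, CER1, SUS1 and ELF4 all cdk8 ABA points lie below all wild-type ABA points, and in CAB2, LHCB2.1, CYC1BAT and OLEO2 above them, with cdk8 library 2 of OLEO2 close to wild type.

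Of the 20 cuticular wax and cutin genes tested, 12 were lower in cdk8 and none higher, with a median log2 fold change of -0.56, where 13% of all genes were lower. CER1, which acts in alkane formation, had 75.9, 71.1 and 77.1 CPM in wild type against 39.8, 38.5 and 36.2 CPM in cdk8 (log2 fold change -0.97 ± 0.10 SE, adjusted p = 3.29e-05). KCS2, a fatty acid elongase, had 335, 299 and 322 CPM in wild type against 135, 175 and 136 CPM in cdk8 (log2 fold change -1.10 ± 0.12 SE, adjusted p = 4.22e-05). WSD1, the wax ester synthase, was at 1.97, 1.42 and 3.38 CPM in wild type against 0.249, 0.322 and 0.161 CPM in cdk8 (log2 fold change -3.17 ± 0.39 SE, adjusted p = 9.7e-05). No library of one genotype reached the range of the other in these 3 genes. Also lower were CER2, CER3, the elongases KCS1 and KCS6 (CER6), KCR1, the wax and cutin exporters ABCG11 and ABCG12, and the cutin enzymes GPAT4 and CYP86A4, from -1.40 for CYP86A4 to -0.37 for KCR1. The count was 13 without the 2 libraries that stood apart.

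Genes of the hypoxia and fermentation list were lower in 8 of 12 cases and higher in none, with a median of -0.97, where 13% of all genes were lower. SUS1, a sucrose synthase, had 1000.2, 690.4 and 897 CPM in the wild-type libraries and 240.1, 292 and 209.7 CPM in those of cdk8 (log2 fold change -1.80 ± 0.16 SE, adjusted p = 7.47e-06). ADH1, the alcohol dehydrogenase, had 716, 662 and 839 CPM in the wild-type libraries and 371, 439 and 345 CPM in those of cdk8 (log2 fold change -0.94 ± 0.14 SE, adjusted p = 0.000342). SUS4 had 13.5, 8.397 and 12.3 CPM in wild type against 3.41, 5.804 and 3.33 CPM in cdk8 (log2 fold change -1.44 ± 0.21 SE, adjusted p = 0.000399). The genotypes did not overlap in any of these 3 genes. The other lower members were AT4G33070 (PDC1, pyruvate decarboxylase), LBD41, ERF73 (HRE1), ERF71 (HRE2) and AlaAT1. HB1, HRA1, PCO1 and PCO2 had negative log2 fold changes between -1.08 and -0.49 and did not pass. Without the 2 libraries that stood apart, 10 of 12 were lower.

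Heat- and touch-induced genes were lower in 5 of 14 cases and higher in none. TCH3, a calmodulin-like touch gene, had 305, 269.8 and 166 CPM in the wild-type libraries and 49.9, 63.8 and 72.5 CPM in those of cdk8 (log2 fold change -1.99 ± 0.27 SE, adjusted p = 0.000197). HSP18.2, a small heat shock protein, had 9.55, 7.51 and 12.7 CPM in the wild-type libraries and 1.704, 1.58 and 2.09 CPM in those of cdk8 (log2 fold change -2.47 ± 0.25 SE, adjusted p = 2.58e-05). ATHSP22.0, a small heat shock protein of the endoplasmic reticulum, had 18.8, 16.7 and 21.9 CPM in the wild-type libraries and 1.67, 2.44 and 2.45 CPM in those of cdk8 (log2 fold change -3.13 ± 0.23 SE, adjusted p = 5.59e-06). The cdk8 libraries were below the wild-type libraries in all 3, and the other lower members were HSFA6B and HSP17.4. Close copies of small heat shock genes may share reads.

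Jasmonate and ethylene genes were lower in 9 of 19 cases and higher in 1, with a median of -0.50. LOX2, a lipoxygenase of jasmonate synthesis, had 251, 314 and 329 CPM in wild type against 156, 102 and 118 CPM in cdk8 (log2 fold change -1.25 ± 0.15 SE, adjusted p = 6.34e-05). HCHIB, the basic chitinase PR3, had 117, 112 and 119 CPM in the wild-type libraries and 46.02, 65.6 and 45.8 CPM in those of cdk8 (log2 fold change -1.15 ± 0.15 SE, adjusted p = 0.000132). The defensin PDF1.2, one of a family of near-identical copies, was at 2.895, 2.37 and 8.14 CPM in wild type against 0, 0.179 and 0.0803 CPM in cdk8 (log2 fold change -5.61 ± 0.75 SE, adjusted p = 0.000362). None of the 3 overlapped between genotypes. VSP2, LOX3, AOC2, JAZ1, ORA59 and PR4 were the other lower members, and LOX3 overlapped between the groups. HCHIB shares 454 exon bases with a gene on the other strand. OPR3, also of jasmonate synthesis, was the higher one, with 42.3, 34.4 and 38.1 CPM in the wild-type libraries and 60.05, 55.3 and 62.2 CPM in those of cdk8, and every cdk8 library was above wild type (log2 fold change 0.63 ± 0.11 SE, adjusted p = 0.00136).

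Several genes of indole glucosinolate synthesis were lower. Of 17 glucosinolate and camalexin genes tested, 9 were lower and 1 higher, with a median of -0.47. MYB51 had 32.5, 28.1 and 28.5 CPM in the wild-type libraries and 11.1, 13.2 and 12.3 CPM in those of cdk8, and MYB122 had 8.45, 8.04 and 12.1 CPM in wild type against 3.98, 4.26 and 2.17 CPM in cdk8. These activators of indole glucosinolate synthesis did not overlap between the genotypes (log2 fold changes -1.28 and -1.45, adjusted p = 3.59e-05 and 0.000764). CYP79B2, which makes indole-3-acetaldoxime, was at -1.17, and PAD3, the last enzyme of camalexin synthesis, at -2.09. BCAT4, of the methionine-derived branch, was the higher one at 0.51, and its call was lost without wild-type library 1 or 2 or cdk8 library 1 or 3. BCAT4 shares 307 exon bases with a gene on the other strand. Phenylpropanoid and flavonoid genes were lower in 8 of 17 cases and higher in none. C4H, the second enzyme of the pathway, had 448, 453 and 525 CPM in wild type against 276, 322 and 269 CPM in cdk8 (log2 fold change -0.72 ± 0.10 SE, adjusted p = 0.000276). Its groups did not overlap. TT8, a flavonoid regulator, and 4CL1, which activates the cinnamic acids, were at -1.01 and -0.51. PAL2, DFR, LDOX, PAP1 and MYB4 were the other lower members, and the count of 8 was 5 without wild-type library 3.

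Photosynthesis genes went the other way in part. Of 18 tested, 6 were higher in cdk8 and 1 lower, with a median of 0.15. All 6 higher members encode light-harvesting proteins. CAB2 (LHCB1.1) had 806, 745 and 731 CPM in the wild-type libraries and 2007, 1727 and 1729 CPM in those of cdk8 (log2 fold change 1.26 ± 0.11 SE, adjusted p = 6.62e-06). LHCB2.1 had 306, 261 and 159 CPM in the wild-type libraries and 768, 510.3 and 718 CPM in those of cdk8 (log2 fold change 1.46 ± 0.20 SE, adjusted p = 0.000231). LHCB2.2 had 241, 206 and 154 CPM in wild type against 594, 396 and 618 CPM in cdk8 (log2 fold change 1.42 ± 0.17 SE, adjusted p = 9.64e-05). The groups were separate in each, and wild-type library 3 and cdk8 library 2 were the lowest of their groups for the LHCB2 genes. LHCB3, LHCB6 and LHCA1 were higher by 0.47, 0.46 and 0.44 on the log2 scale, and the count was 3 without wild-type library 1 or 3 or cdk8 library 1 or 3. CAB1 (LHCB1.3), at 0.28, did not pass, and these near-identical LHCB copies can share reads. RBCS2B, a small subunit of Rubisco, was lower with 416, 433 and 578 CPM in the wild-type libraries and 284, 278 and 238 CPM in those of cdk8, without overlap (log2 fold change -0.84 ± 0.13 SE, adjusted p = 0.00064), while RBCS1A was at -0.02 and did not pass.

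Several mitotic genes were higher. Of 12 cell cycle and DNA replication genes tested, 5 were higher and none lower, with a median of 0.49. CYC1BAT (CYCB1;2), a mitotic cyclin, had 6.72, 6.98 and 9.57 CPM in wild type against 14.5, 17.7 and 12.8 CPM in cdk8 (log2 fold change 0.95 ± 0.15 SE, adjusted p = 0.000714). CDKB2;1 had 10.7, 10.999 and 10.9 CPM in the wild-type libraries and 17.2, 16.4 and 15.3 CPM in those of cdk8, and CDKB2;2 had 7.24, 9.64 and 10.2 CPM in wild type against 14.2, 12.6 and 14.3 CPM in cdk8. These mitotic kinases were higher in every cdk8 library (log2 fold changes 0.58 and 0.61). CDKB1;1 and CYCD3;1 were the other higher members. The DNA replication genes MCM2, MCM3, MCM5 and PCNA1 lay between -0.092 and 0.20 and did not pass. Without cdk8 library 1 the count was 3.

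Clock genes were counted by phase. Of 5 morning-phased genes 3 were higher and none lower, and of 8 evening-phased genes 3 were lower and none higher. RVE8 had 2.32, 2.42 and 2.696 CPM in wild type against 3.98, 5.697 and 3.85 CPM in cdk8, and PRR9 had 11.2, 7.63 and 5.39 CPM in wild type against 17.65, 13.4 and 14.5 CPM in cdk8. In both, the lowest cdk8 library exceeded the highest wild-type library (0.86 and 0.91, log2 scale). LHY was higher by 0.60, a call lost without wild-type library 1 or 3 or cdk8 library 2 or 3. ELF4 had 54.02, 53.9 and 47.9 CPM in wild type against 17.1, 17.2 and 19.6 CPM in cdk8 (log2 fold change -1.53 ± 0.14 SE, adjusted p = 1.06e-05). PCL1 (LUX) had 196, 169 and 171 CPM in the wild-type libraries and 107, 97.9 and 110.01 CPM in those of cdk8 (log2 fold change -0.77 ± 0.13 SE, adjusted p = 0.00134). BOA, its close relative, was at -0.73. ELF4 and PCL1 belong to the evening complex, which represses growth and morning genes, and for each of them the groups did not overlap. The time of day of sampling was not given.

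The root and guard cell markers all passed the filter on low counts, and several of root hairs were lower. Of 13 root and root hair markers tested, 6 were lower and 2 higher, with a median of -0.73. All 6 lower ones are root hair genes. PRP1, a root hair cell wall protein, had 8.28, 6.68 and 19.9 CPM in wild type against 2.31, 4.26 and 1.12 CPM in cdk8 (log2 fold change -2.17 ± 0.44 SE, adjusted p = 0.00334). LRX1, of root hair walls, had 8.86, 6.98 and 12.8 CPM in wild type against 3.799, 5.303 and 2.77 CPM in cdk8 (log2 fold change -1.27 ± 0.27 SE, adjusted p = 0.00465). PRP3 had 16.7, 14.1 and 26.7 CPM in wild type against 7.88, 12.1 and 5.54 CPM in cdk8 (log2 fold change -1.17 ± 0.27 SE, adjusted p = 0.00781). The groups did not overlap, and wild-type library 3 and cdk8 library 2 were the highest of their groups in all 3 genes. Summed over all 13 markers, none of which was at 0, the level was between 155 and 194 CPM in wild type and between 111 and 181 CPM in cdk8, and its part in the other results was not tested. WOX5, of the quiescent centre, and SHR, of the stele, were higher by 1.19 and 0.29. Neither was called without the 2 libraries that stood apart, where 8 markers were lower and none higher. The count of higher markers was also 0 without wild-type library 2 and 1 without wild-type library 1 or 3 or cdk8 library 1. SHR (adjusted p = 0.0485, edgeR) also lost its call with relative log expression scaling, DESeq2, limma-voom, no filter or the 6 ABA libraries alone. Of 11 guard cell and stomatal markers 2 were lower, the anion channel OZS1 (SLAC1, which shares 125 exon bases with a gene on the other strand) at -0.65 and the potassium channel KAT1 at -0.49, and none was higher, shares near those of all genes. KAT1 was not called without wild-type library 3 or cdk8 library 3, nor OZS1 without wild-type library 2, and 2 other guard cell markers were higher without wild-type library 3.

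Membrane transport and nutrient genes gave mixed counts. Of 18 aquaporins 5 were lower and 3 higher. TIP2;3, a tonoplast aquaporin, had 17.603, 16.03 and 9.41 CPM in wild type against 3.02, 3.62 and 2.93 CPM in cdk8, with no overlap (log2 fold change -2.16 ± 0.21 SE, adjusted p = 2e-05). Also lower were PIP1;4, TIP2 (TIP1;2), PIP1B at -0.44 and GAMMA-TIP at -0.58, and the higher ones were PIP2;8, PIP2;5 and DELTA-TIP at 0.66, 0.53 and 0.83. DELTA-TIP and GAMMA-TIP overlapped between the groups, and close copies among aquaporins may share reads. Lower aquaporins numbered 2 without wild-type library 2 or cdk8 library 1 or 3, and higher ones 1 without wild-type library 1 or 3 or cdk8 library 1. Of 7 alpha-expansins, which loosen walls, 1 was lower, EXPA4 at -0.58, and the count was 2 without wild-type library 1 or cdk8 library 3 and 3 without cdk8 library 2. Of 15 iron genes 2 were higher and 1 lower, also near the shares of all genes, and FER1, a ferritin that stores iron, had 416, 564 and 520.4 CPM in the wild-type libraries and 326, 230.1 and 329.8 CPM in those of cdk8 (log2 fold change -0.76 ± 0.18 SE, adjusted p = 0.00808). FER1 shares 727 exon bases with a gene on the other strand that was at 0.928 CPM in wild type. IRT1, the root iron transporter, was higher at 0.957 CPM on average against 0.0961 CPM, on 78 counts over the cdk8 ABA libraries, a call lost when any of the 6 libraries was left out. PHT1;1, a phosphate transporter with close copies, was the 1 of 10 phosphate starvation genes that was higher (0.66), and none was lower. Of 14 auxin genes 2 were higher and 1 lower, which is near the shares of all genes. IAA14, a repressor of auxin response, was among the higher at 1.06, and GH3.3, which conjugates auxin, was lower at -2.73. A second auxin gene was lower without wild-type library 1 or cdk8 library 2 or 3. In the mitochondrial stress list 2 of 10 were lower, AOX1D at -1.73 and CRF6 at -0.39. That count was 5 without wild-type library 3, also when cdk8 library 2 was left out with it, 1 without wild-type library 1 or 2, and 0 without cdk8 library 1.

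Salicylic acid and immune genes, with PR1 and BGL2 above, include genes that were highest in the 2 libraries that stood apart, and the list's median log2 fold change moved from -0.43 to -0.13 without them. Its summed level was 133, 129 and 292 CPM in wild type against 109, 178 and 125 CPM in cdk8. Of 16 tested, 3 were lower and 1 higher. WRKY70 had 16.1, 17.7 and 22.5 CPM in the wild-type libraries and 5.93, 6.77 and 6.504 CPM in those of cdk8 (log2 fold change -1.55 ± 0.25 SE, adjusted p = 0.000802). WRKY18 had 9.84, 11.1 and 16.5 CPM in the wild-type libraries and 6.64, 6.52 and 5.18 CPM in those of cdk8 (log2 fold change -1.03 ± 0.23 SE, adjusted p = 0.0063). These WRKY factors of the salicylic acid response were lower in every cdk8 library, also without the 2 libraries (-1.46 and -0.84). FMO1, of systemic immunity, was lower at -2.27 and not called without wild-type library 3, where it was highest. EDS16 (ICS1), which starts salicylic acid synthesis, was higher at 0.67, a call lost without wild-type library 1 or 2 or cdk8 library 2.

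**Figure D4:**
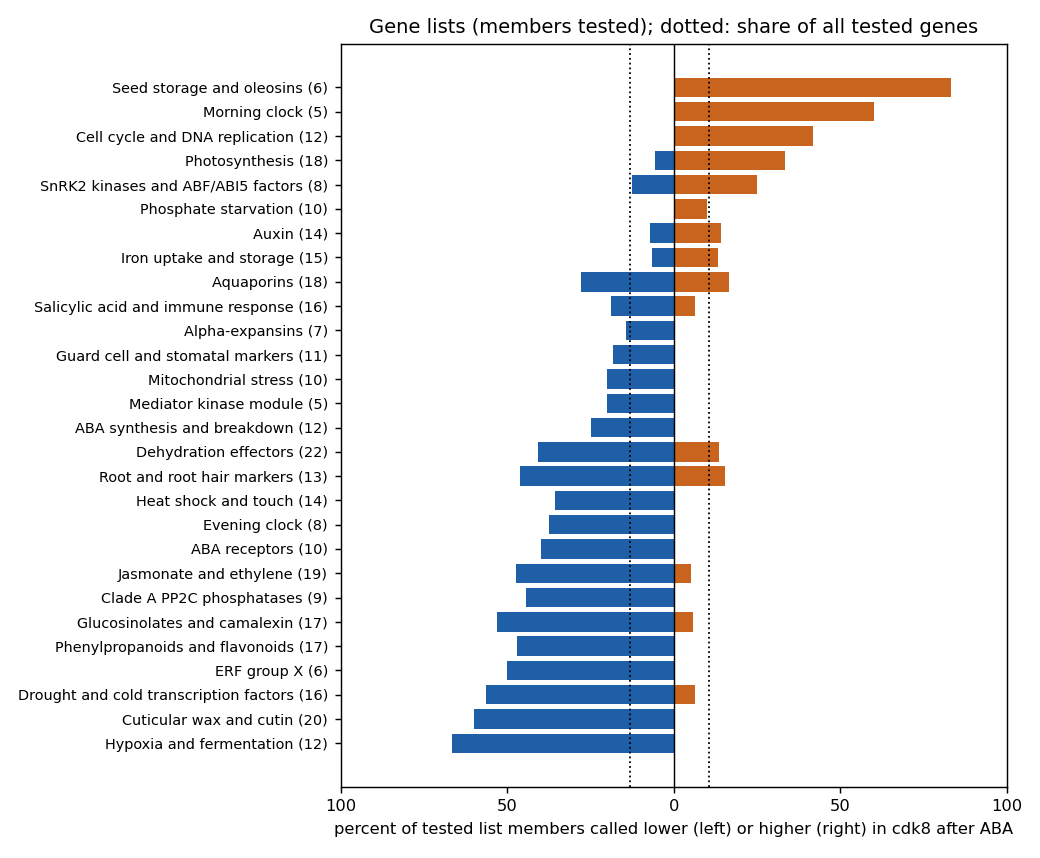
Share of the tested members of each of 28 gene lists called lower (blue, to the left) or higher (orange, to the right) in cdk8 after ABA, in percent; the number tested is in brackets, and dotted lines mark 13% lower and 10.6% higher for all genes tested. The hypoxia list (8 of 12) and the cuticle list (12 of 20) reach furthest to the left, and the seed list (5 of 6) furthest to the right. Seed list members that pass the filter on low counts through cdk8 alone had to differ, so that share is a description only.

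The genotype difference after ABA was set beside that after mock, which rests on other libraries. After mock 2781 genes were called, 1089 higher (5.15%) and 1692 lower (8%), and the total was 1486 to 1782 without wild-type mock library 1, 2 or 3 or cdk8 mock library 1 or 2. Of the genes higher after ABA 412 were also higher after mock, 18.4% of the former and 37.8% of the latter. Of those lower after ABA 832 were also lower after mock, 30.2% and 49.2%. Called in opposite directions were 48 and 51 genes. Across the 21151 genes the log2 fold changes of the 2 comparisons had a Pearson correlation of 0.498, as a description. That the difference itself depended on ABA was called for 1103 genes (5.21%), in the positive direction for 501 (2.37%) and in the negative for 602 (2.85%). Of the 1103, 796 were called after ABA, 15.9% of the 4999. Of the 3656 genes called after ABA and not after mock, 626 had a called dependence. The count of 1103 was sensitive to the libraries: it was 2063 without both libraries that stood apart, 545 without cdk8 ABA library 1, and between 540 and 688 without wild-type mock library 1, 2 or 3 or cdk8 mock library 1 or 2.

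Of all genes tested, 5.15% were higher and 8% lower after mock, and 5.21% had a called dependence on ABA. The counts by list after mock lay beside those after ABA as follows. Hypoxia genes were lower in 6 of 12 cases after mock and ERF group X genes in 2 of 6, against 8 and 3 after ABA. Dehydration effectors were lower in 8 of 22 cases after mock and drought and cold factors in 6 of 16, each against 9 after ABA. In each of these 2 lists 1 member was higher after mock. Heat and touch genes were lower in 5 of 14 cases after mock, as after ABA. Glucosinolate and camalexin genes were lower in 6 of 17 cases after mock, against 9 after ABA. Morning clock genes were higher in 3 of 5 cases after mock and evening clock genes lower in 3 of 8. Among them ELF4 was at -1.53 after ABA and -1.21 after mock, and RVE8 at 0.86 after ABA and 1.26 after mock. For the cell cycle list the difference depended on ABA in 7 of 12 genes, the largest count of any list. CYC1BAT was at 0.95 after ABA and -0.34 after mock (difference 1.29 ± 0.21 SE, adjusted p = 0.00476), with mean levels of 22.7 CPM after mock and 7.75 CPM after ABA in wild type, and of 17.9 and 15.02 CPM in cdk8. The dependence was also called for 4 of 18 photosynthesis genes. Of these, CAB2 was at 5291 CPM in wild type against 5344 CPM in cdk8 after mock, and at 761 and 1821 CPM after ABA (difference 1.24 ± 0.15 SE, adjusted p = 0.00106). In the cuticle list, 4 of 20 were lower after mock, and CER1 was at -0.97 after ABA and -0.11 after mock (difference -0.86 ± 0.15 SE, adjusted p = 0.00599). Of the iron genes 10 were higher after mock and 2 after ABA, and 8 of 10 phosphate starvation genes were lower after mock and none after ABA. The dependence on ABA was called for 3 of the 15 iron genes and 4 of the 10 phosphate starvation genes.

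**Figure D5:**
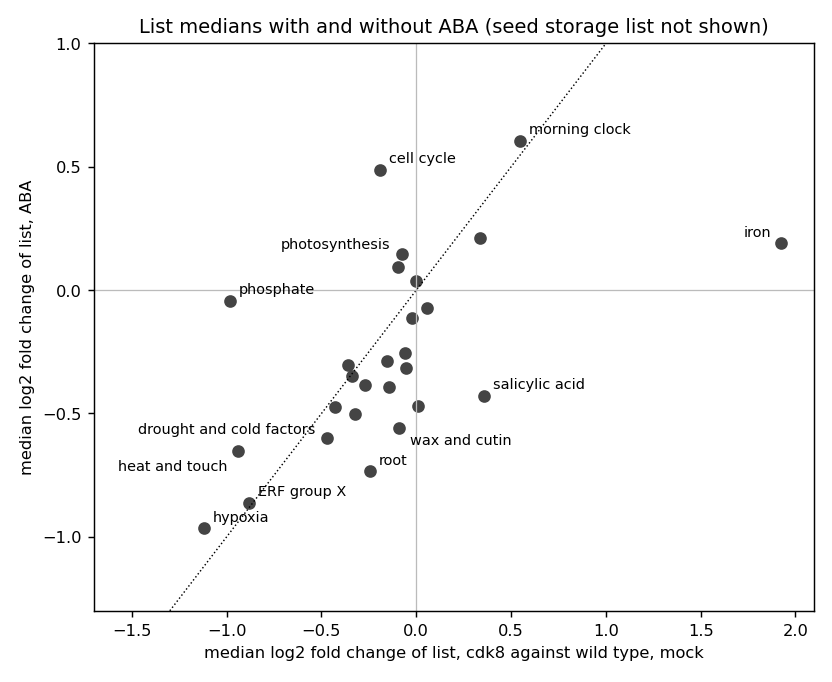
Median log2 fold change of cdk8 against wild type of 27 gene lists after mock (horizontal axis) and after ABA (vertical axis), a point for each list; the dotted line marks equal values. Hypoxia, ERF group X and the morning clock lie near the line, the cell cycle list lies above it, and the iron list (1.92 after mock, 0.19 after ABA) and phosphate list (-0.98 and -0.043) lie near zero after ABA.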

How the data were processed

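RNA-seq of whole seedlings was measured in 12 libraries, 3 for each genotype and treatment. The deposited values were whole-number gene counts of paired-end fragments, which per the file headers came from featureCounts v1.4.6, by exon and Ensembl TAIR10 gene, with no strand option set; the submitters' processing notes also name FastQC and TopHat2. So genes that overlap on opposite strands cannot be told apart and near-identical copies may split or lose reads. Of the 107 named genes, 15 share exon bases with a gene on the other strand. Besides those noted above, these are P5CS1 (85 bases), ADH1 (61), KCS2 (41), CDKB2;1 (44), DELTA-TIP (120) and OLEO1 (44).

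From these counts, edgeR 4.0.16 (R 4.3.3) was run with TMM scaling, filterByExpr over the 4 groups (21151 of 33602 genes kept) and a quasi-likelihood fit of 4 group means on all 12 libraries. Contrasts were cdk8 against wild type after ABA, after mock, and the difference of both, each with Benjamini-Hochberg adjustment over the genes tested and called at 0.05. The biological coefficient of variation was 0.126. CPM used the TMM-scaled totals; 3 counts correspond to 0.109 to 0.170 CPM in the ABA libraries. No 2 libraries of the same group agreed within sampling noise, so none was counted as a duplicate.

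The 28 gene lists (367 genes) and the comparison itself were chosen with earlier results of these data known. Named genes were CDKE;1, RAP2.6 and OST1, the 10 largest rises and 10 largest falls by the rule given with them, and up to 3 called members per list and direction with the smallest p, 107 genes in all, of which 1 is not reported here; further called members are named only to complete a list's count. DESeq2 1.42.0, limma-voom (limma 3.58.1), other scalings, filters and left-out libraries were alternatives. Symbols and promoters came from RefSeq TAIR10.1, which held 21035 of the tested genes, all on the same chromosome and strand, 3994 of them with the same annotated start; gene coordinates are those of the deposited table and promoter coordinates those of TAIR10.1.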

Additional observations from a re-analysis of the deposited data

Results flagged for a closer look

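For 25 of the 107 named genes the genotype difference after ABA differed from that after mock, by the test of the difference itself (edgeR, Benjamini-Hochberg adjustment over all genes). The named genes were chosen for being called after ABA, and the share was 5.21% of all genes and 15.9% of all genes called after ABA. The values below are log2 fold changes of cdk8 against wild type after ABA minus those after mock. No cause was tested for any of them.

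The genotype difference was more positive after ABA for 12 genes. For light-harvesting genes it was 1.24 for CAB2, 1.22 for LHCB2.2 and 1.41 for LHCB2.1. Among mitotic genes it was 0.78 for CDKB2;1, 1.29 for CYC1BAT and 0.89 for CDKB2;2. MLO12 was at 1.32, ABF1 at 0.89, OPR3 at 0.64, the clock gene PRR9 at 1.08 and FER1 at 1.00. CBF2 was at 2.02, lower in cdk8 after mock (-1.39) and higher after ABA (0.62), a call lost under 4 of 15 alternatives. ABF1 was likewise lower in cdk8 after mock (-0.57) and higher after ABA (0.33).

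More negative after ABA were 13 genes. Stress and metabolic enzymes were NATA1 at -4.24, CSLG2 at -3.96, UGT73C1 at -1.54, SUS1 at -1.38 and CER1 at -0.86. Of dehydration genes, RD22 was at -0.95 and HB-7 at -0.70. In defence and hormone genes, LOX2 was at -1.19, HCHIB at -1.60, WRKY70 at -1.45, FMO1 at -3.58 and GH3.3 at -1.60. KAT1, a potassium channel of guard cells, was at -1.53, higher in cdk8 after mock (1.04) and lower after ABA (-0.49). Its call after ABA was lost under 4 of 15 alternatives.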

How the results depend on the processing

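The count of 4999 genes after ABA was 4935 with relative log expression scaling, 5282 with upper-quartile scaling, 5328 with DESeq2, 4868 with limma-voom, 4778 without a filter, 4953 with a filter at 1 CPM and 5031 without organelle genes. It was 2931 on the 6 ABA libraries alone (1118 higher, 1813 lower), 2378 at an adjusted p under 0.01 (863 and 1515) and 1155 at 2-fold or more (363 and 792). Leaving out each library in turn gave 3099 to 5284 genes, 1156 to 2269 higher and 1943 to 3015 lower. Upper-quartile scaling moved the share of higher among called genes from 44.9% to 54.2%. After mock, leaving out each library gave 1486 to 1935 genes, and 1129 passed 0.01. The dependence on ABA was called for 1704 genes by DESeq2, 2063 without both libraries that stood apart, 269 at 0.01, and 540 to 1493 with each library left out. Fewer samples or a stricter threshold are part of how these alternatives are made; for the others the cause was not tested.

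Of the 107 named genes, 82 were called under every alternative run on them, 25 lost the call under at least 1, and none changed direction; 104 of 1602 values lost the call. Library numbers did not pair the ABA libraries: deviations of same-numbered libraries had correlations of -0.0173, -0.294 and -0.292. With the number as a replicate block, 4147 genes were called. Genes near the 3-count level in 1 genotype, such as OLEO2, IRT1, WSD1 and PDF1.2, rest on few counts there.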

Other observations

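Some neighbouring genes differed together after ABA; these neighbourhoods were chosen after their values were seen, and their paralogs may share reads. In the UGT73C glucosyltransferase cluster on chromosome 2, AT2G36780 had 194, 169.8 and 171 CPM in the wild-type libraries and 17.9, 18.9 and 23.9 CPM in those of cdk8, with no overlap between the groups (log2 fold change -3.14 ± 0.13 SE, adjusted p = 2.06e-08). UGT73C1, AT2G36770 and DOGT1 in the same cluster were lower by log2 fold changes of -2.84, -1.55 and -0.89, and the other 2 genes between them were not tested. For AT2G36780 the difference depended on ABA (difference -3.74 ± 0.24 SE, adjusted p = 1.01e-05).

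On the same chromosome, 5 adjacent genes from AT2G29300 to AT2G29340 were higher in cdk8, with log2 fold changes between 0.85 and 1.37, while the next gene, the senescence gene SAG13, was lower at -1.87. Of these, AT2G29320 and AT2G29330 were also higher after mock, at 0.42 and 0.94, and the others were not called there. On chromosome 1, 5 adjacent genes from AT1G72900 to AT1G72940 were lower, between -0.79 and -1.36, and the gene before them, AT1G72890, was higher at 0.73. The same 5 genes were also called lower after mock, at -1.03, -1.77, -1.68, -0.57 and -1.48 in order of position. For AT1G72940 the difference depended on ABA in the positive direction (0.70, edgeR adjusted p = 0.0133). In the marneral cluster on chromosome 5, CYP705A12 and CYP71A16 were higher at 1.28 and 1.59, and the synthase MRN1, at 0.088, did not pass.

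A few genes had no count in 1 genotype after ABA. The defensin PDF1.3 and AACT1, an acyltransferase, had 116 and 98 counts over the wild-type libraries and none in cdk8, at least 54.8-fold and 46.3-fold lower taking 3 counts over the 3 libraries as the floor. EPR1 (AT2G27380) had 243 counts over the cdk8 libraries and none in wild type, at least 57.2-fold higher.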
